A study of Rattus norvegicus with 241 samples.

Results

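The genes described here are the 4 fibroblast growth factor (FGF) receptors FGFR1, FGFR2, FGFR3 and FGFR4 and the 4 ligands FGF1, FGF2, FGF7 and FGF10, which act in the mammary gland. They are 8 of the 16820 genes listed in the bulk tables of a rat study of LY2157299 (galunisertib, named TGFBRi), an oral inhibitor of the TGFβ receptor TGFBR1. The members were found by their symbols, ignoring case. All 8 were listed in every bulk fraction and in the 3 sets of single-cell tables, except in CD45+ cells of tumors, whose table listed 5 of them (FGFR1, FGFR2, FGFR4, FGF2 and FGF7).

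The series held 241 samples of female rats of the inbred ACI and the outbred SD strain that were given vehicle or TGFBRi at 75 mg/kg in 2 doses a day for 10 days, or for 21 days in the estradiol study. The 202 bulk RNA-seq samples were sorted cells and stood for 196 libraries, because 4 parts of 1 rat were merged in each of 2 fractions. Basal cells were the CD24+CD29high and luminal cells the CD24+CD29low part of the CD31-CD45- cells, and leukocytes were the CD45+ cells. The single-cell set held 39 tables and 160052 cells, with 16762 from sorted basal and luminal cells of 6 ACI rats, 39766 from the same fractions of 9 SD rats and 103524 from unsorted whole glands of 9 SD rats. Young virgin ACI rats were dosed from 35 days of age and killed at day 0, 7 or 14 after the last dose (3 rats in each group). Young virgin SD rats were dosed from 24 days of age and killed at day 0 (4 rats in each bulk group), and all single-cell rats were young virgin rats at day 0 (3 vehicle and 3 TGFBRi in ACI, 3 vehicle and 6 TGFBRi in each SD experiment). Adult virgin and parous ACI rats were dosed at 18 to 24 weeks of age (4 rats in each group, but 3 and 2 in the CD45+ cells of TGFBRi virgin and vehicle parous rats). In the NMU study, all SD rats were dosed from 21 days of age, received the carcinogen N-nitroso N-methylurea (NMU) at 50 mg/kg and were killed on day 87. Its groups were tumor-bearing vehicle rats, tumor-free TGFBRi rats and tumor-bearing TGFBRi rats (3 rats each), and EPCAM+ and CD45+ cells were also sorted from NMU tumors (3 vehicle and 3 TGFBRi). In the estradiol (E2) study, ACI rats were dosed from 38 days of age and then carried an implant that was empty or held 37 mg of E2. Its luminal groups were rats without E2 (4 vehicle, 3 TGFBRi, all tumor-free), tumor-bearing vehicle rats with E2 (4), tumor-free TGFBRi rats with E2 (4) and tumor-bearing TGFBRi rats with E2 (2). All sequenced vehicle rats with E2 and all sequenced NMU vehicle rats bore tumors, so that agent and tumor cannot be told apart in those groups. In the whole study, not every vehicle rat given E2 or NMU developed a tumor.

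FGF receptors are receptor tyrosine kinases that signal through FRS2 adaptors and the MAPK pathway, and the Sprouty, Spred and DUSP6 genes are feedback inhibitors that this pathway induces. FGF7 and FGF10 are made by mesenchyme and act on the epithelial splice form of FGFR2, whereas FGF1 binds all the receptors and FGF2 is stored in the matrix with heparan sulfate. In the mammary gland, FGF10 and FGFR2 are known for bud formation and for ductal branching, and FGFR1 and FGFR2 for the maintenance of epithelial progenitors. Gene-level reads do not separate the splice forms.

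The 202 bulk samples held 4194912 to 52314784 reads on genes, and levels are given as reads per 1000000 reads on genes (RPM). The median unique molecular identifier (UMI) count per cell was 4251 to 15941 in sorted ACI tables, 4365.5 to 14448 in sorted SD tables and 2820 to 3885 in whole-gland tables, and levels are given as UMIs per 1000000 UMIs (UPM) of a rat's cells of 1 class. Summed basal markers were 3299 to 38564 RPM in basal libraries and 30.6 to 3409 in luminal libraries, and PTPRC, which encodes CD45, was 48.3 to 1368 RPM in CD45+ libraries and at most 47.7 in the other normal fractions. Fibroblast markers summed to 416 to 56927 RPM in basal, 39.4 to 4618 in luminal and 2.39 to 88522 in CD45+ libraries, so that no fraction was free of them. In 13 of the 196 libraries, long transcripts were low against short ones by more than 1.5 on the log2 scale below their fraction's median. In young ACI rats the receptors moved with them: in basal libraries, FGFR1 was 16.6 to 33.9 RPM in the 4 such libraries and 120 to 371 in the others, FGFR2 was 98.4 to 156 and 357 to 784, and FGFR3 was 0.455 to 2.5 and 8.34 to 27.8. FGF1 was 26.1 to 37.6 RPM in these 4 and 16.5 to 45.2 in the others, which overlapped, as did FGF2, FGF7 and FGF10. The cell barcodes shared by a pair of single-cell tables were at most 2.51% of the smaller table.

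Basal cells carried more FGFR1 and FGFR2, and in young rats luminal cells carried more FGFR3. In SD rats at day 0, FGFR1 was 238, 276, 275 and 272 RPM in basal cells of vehicle rats and 29.8, 35.3, 11.7 and 60.8 RPM in their luminal cells. FGFR2 was 232, 237, 221 and 251 RPM in basal and 14.7, 68.3, 24.1 and 105.8 RPM in luminal cells. FGFR3 was 14.8, 12.4, 14.2 and 15.2 RPM in basal and 18.3, 83, 21.4 and 82.9 RPM in luminal cells. The lineages did not overlap for any of these receptors, and luminal cells were spread more widely than basal cells. The log2 difference, luminal minus basal, was -2.61 ± 0.63 (SE) for FGFR1 (adjusted p = 0.00218), -2.0 ± 0.40 for FGFR2 (0.000442) and 2.07 ± 0.50 for FGFR3 (0.00217, limma, n = 4 and 4). The first luminal library was among those low in long transcripts, and without it the differences were -2.72 (adjusted p = 0.00381), -1.62 (0.00147) and 2.35 (0.00131).

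Over the 35 rats with both fractions in the young ACI, young SD and NMU SD experiments, FGFR1 and FGFR2 were each higher in basal cells of 34 rats, and FGFR3 was higher in luminal cells of 32, with the other 3 among the 9 NMU rats. The basal level was 5.92 times the luminal level for FGFR1, 3.79 times for FGFR2 and 0.288 times for FGFR3 in the median rat. These ratios are in RPM, where the median gene of vehicle rats differed between the fractions. Luminal against basal, it lay at -0.483 in SD and -0.589 in NMU rats on the log2 scale, and at -0.034 to 0.098 in ACI rats. In ACI vehicle rats at day 0, FGFR1 was 271, 164 and 212 RPM in basal and 42.8, 30.4 and 28.2 in luminal cells, and FGFR3 was 10.1, 23.2 and 20.3 in basal and 123, 98.5 and 70.5 in luminal cells. The groups did not overlap, but neither passed the limma test across the young ACI libraries. When the low-long-transcript libraries were left out, both passed (-2.62 for FGFR1 and 2.55 for FGFR3). None of the libraries left out was of day 0, so the same rats were compared and only the rest of the fit changed. In tumor-bearing NMU vehicle rats, FGFR1 was 312, 425 and 264 RPM in basal and 12.1, 6.21 and 20.7 in luminal cells, a log2 difference of -4.11 ± 0.43 (adjusted p = 6.01e-07). FGFR3 in the same rats was 19.7, 14 and 22 RPM in basal and 2.88, 2.9 and 15.6 in luminal cells, with overlap and without passing (-1.14 ± 0.98, adjusted p = 0.454). FGFR4 was at most 13.9 RPM in any library of normal glands. In ACI vehicle rats at day 0 it was higher in the basal fraction (2.8, 5.27 and 6.06 against 0.0498, 0 and 0.9 RPM, log2 difference -4.51 ± 1.13, adjusted p = 0.00369). The size of this difference rests on luminal levels at or near 0, and it was -3.72 without luminal replicate 2 and -5.68 without luminal replicate 3.

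Of the ligands, FGF1 was higher in basal cells in all 35 rats, by 8.14 times in the median rat, and passed the test in all 5 sets of vehicle rats. In ACI rats at day 0 it was 42.7, 41.2 and 36.7 RPM in basal and 4.73, 5.48 and 4.71 RPM in luminal cells (log2 difference -2.95 ± 0.44, adjusted p = 6.66e-06). FGF2 was higher in basal cells in all 35 rats too, at lower levels, and passed the test in 4 of the 5 sets; the call in NMU vehicle rats (-2.81 ± 0.85, adjusted p = 0.020) was lost without basal replicate 1 or 2 or luminal replicate 1, with adjusted p up to 0.0912, and with only the groups compared in the fit (0.0510), and that in ACI rats at day 0 was lost without luminal replicate 1 (0.0561).

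FGF7 and FGF10 were low in all epithelial fractions. In SD vehicle rats, FGF7 was 12.6, 5.82, 4.12 and 8.24 RPM in basal and 0.963, 0.0902, 0 and 0 RPM in luminal cells. FGF10 was 3.02, 1.21, 2.02 and 2.83 RPM in basal and 0.17, 0, 0 and 0.0496 RPM in luminal cells. Both passed the test (-4.94 ± 0.98 and -3.91 ± 0.80 on the log2 scale, and -5.94 and -4.39 without the luminal library low in long transcripts). The same 4 basal libraries held 34417 to 53453 RPM of fibroblast markers, against 3462 to 8893 in basal libraries of ACI vehicle rats at day 0. FGF7 passed in those ACI rats too, at lower levels (basal 1.88 ± 0.842 and luminal 0.111 ± 0.151 RPM, SD, n = 3, log2 difference -3.68 ± 0.76, adjusted p = 0.000517 in limma, and -4.35 without luminal replicate 2). In sorted SD single cells the basal-like class held 0.02 UPM of FGF7 while cluster 7, of 151 cells led by DCN, COL3A1 and COL1A1, held 78.4. These cells had passed the CD24+ gate and the authors' filter on keratin reads, and the study describes rare epithelial cells with matrix genes in the sorted tables, which it names secretory basal cells. Whether cluster 7 holds the same cells, and the part of fibroblast markers in the bulk difference, was not tested.

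Over the 8 members and 5 sets of vehicle rats, 19 of 40 lineage tests passed (47.5%), 18 lower and 1 higher in luminal cells, and the groups did not overlap in 28, where 36.7% of all tests over genes did not. Among all genes tested, 24.5% passed over the 5 sets, with 20.5% in ACI at day 0, 14.7% at day 7, 19.3% at day 14, 50.1% in SD and 21.9% in NMU rats. The fit with the rat as a block called 27 of 40, against 33.6% of all genes, and the fit without the libraries low in long transcripts also called 27, against 30.7%, of which 19 were the calls above. All 8 added calls were in ACI rats and included FGFR1, FGFR2 and FGFR3 at day 0 (-2.62, -1.55 and 2.55) and at day 14 (-1.99, -1.99 and 1.87). No basal or luminal library of ACI rats at day 0 was among those left out. In bulk, fewer cells of a type and less RNA of a gene per cell cannot be told apart.

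**Figure D1:**
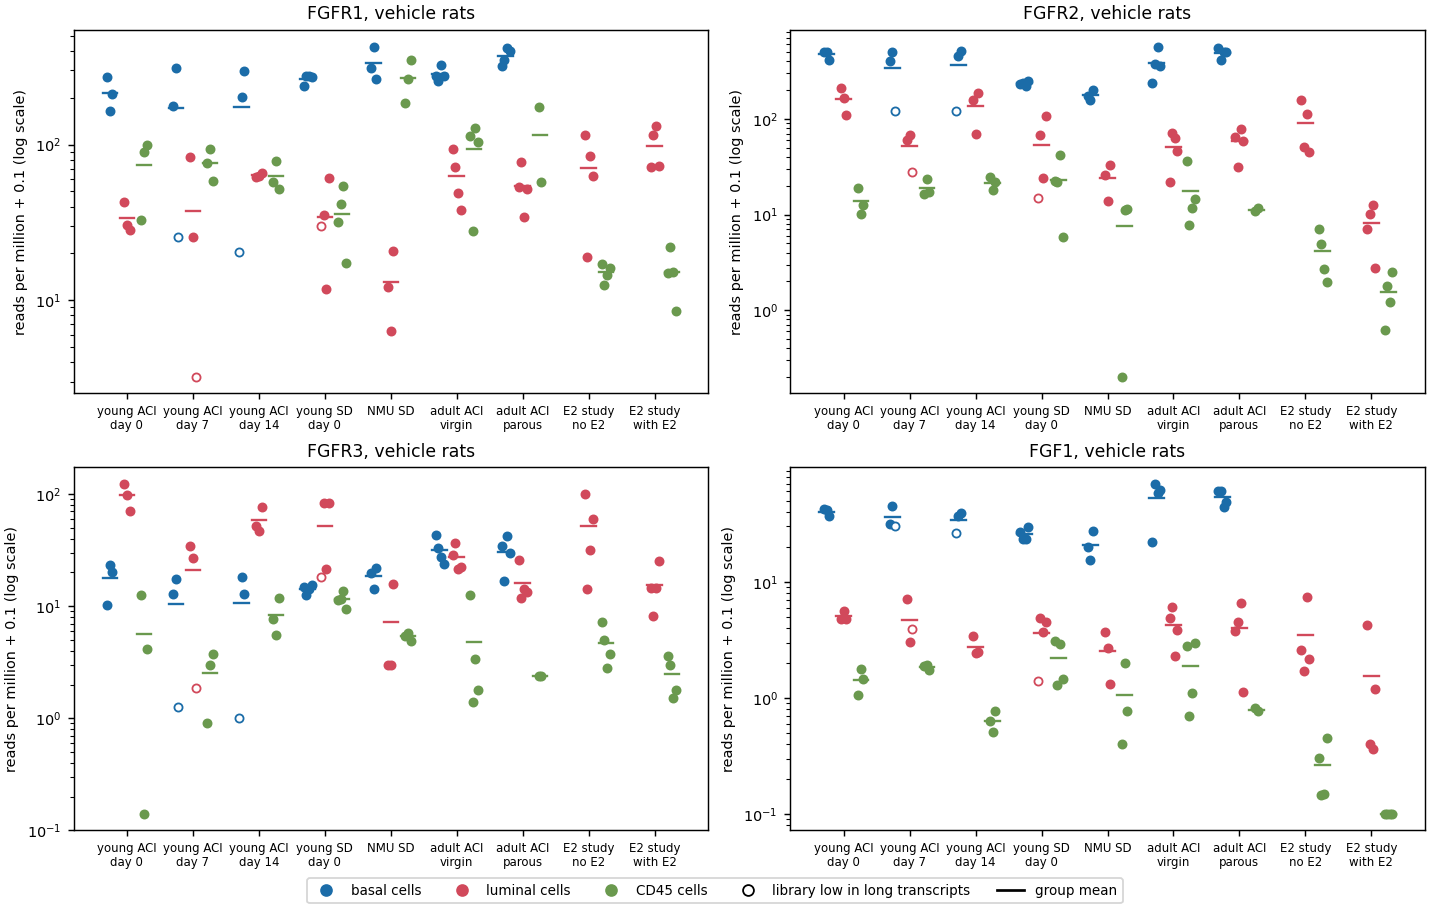
Levels of the 8 members in bulk libraries of vehicle rats, in RPM on a log scale, with 1 point for each library and a line for each group mean. FGFR1, FGFR2, FGF1 and FGF2 lie higher in basal than in luminal libraries and FGFR3 lies higher in most luminal libraries.

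Across all groups, group means of FGFR1 were 171 to 442 RPM in basal cells (15 groups), 13 to 98.2 in luminal cells (20 groups) and 8.18 to 266 in CD45+ cells (22 groups). FGFR2 was 114 to 517 RPM in basal, 8.05 to 283 in luminal and 0.416 to 69.2 in CD45+ cells. FGFR3 was 6.52 to 32.5 RPM in basal, 7.12 to 97.4 in luminal and 0.538 to 11.4 in CD45+ cells. FGF7 in CD45+ cells ranged from 0 to 14.8 RPM, and CD45+ libraries also ranged widest in fibroblast markers. Basal markers summed to 0.571 to 20675 RPM in CD45+ libraries (median 175) and luminal markers to 26.2 to 10438 (median 1250). The part of epithelial RNA in the levels of CD45+ libraries was not tested. In EPCAM+ cells of NMU tumors, FGFR1 was 176, 255 and 117 RPM in vehicle and 268, 170 and 62.8 RPM in TGFBRi rats. FGFR2 in these tumors was 52.5, 72 and 239 RPM in vehicle and 45.9, 21.2 and 19.4 RPM in TGFBRi rats. The groups did not overlap for FGFR2, but the difference (-1.80 ± 0.54, adjusted p = 1.00) did not pass. TGFBRi replicate 3 was among the libraries low in long transcripts (-1.65 without it, adjusted p = 1.00), and fibroblast markers were 9730 to 78038 RPM in the 6 tumor libraries.

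Single cells separated the luminal level of the receptors by subset. Clusters were named from marker lists, as basal-like, luminal progenitor-like (LP-like) and mature luminal-like (ML-like, with PRLR, ESR1 and PGR among its markers) in the sorted tables, and also as 9 stromal, vascular, nerve and immune classes in whole glands. The sorted tables also held a fibroblast-like cluster (47 cells in ACI and 151 in SD rats) and, in SD rats, a mural-like cluster (374 cells, 90.9% from TGFBRi rats), which entered the orders of classes. These cells had passed the sort gates and the authors' filter on keratin reads. In ACI rats the fibroblast-like cluster held 11 vehicle and 36 TGFBRi cells. These numbers are close to those that the study gives for its secretory basal cells in ACI rats. In SD rats each of these clusters was smaller than the study's population of secretory basal cells. Whether they are the same cells was not tested. Clusters that could not be named from the lists were left out of the classes, 5.68% of vehicle and 8.13% of TGFBRi cells in ACI rats, 0.757% and 11.1% in SD rats and 11.6% and 10.0% in whole glands. In SD rats they included cluster 0 (1163 cells, 98.4% from TGFBRi rats), which scored highest for the basal list but had more Schwann cell markers among its leading genes, and clusters 5, 11 and 17, led by cell cycle genes (638, 843 and 216 cells, 96.7% to 98.7% from TGFBRi rats). The part of this unequal loss in the results was not tested cluster by cluster. FGFR2 was high in basal-like and ML-like cells and near 0 in LP-like cells. In sorted SD cells it was 71.1, 111 and 204 UPM (lowest, median and highest of 9 rats) in the basal-like class, 36.2, 61.3 and 199 in the ML-like class and 0.215, 0.639 and 2.97 in the LP-like class. In whole glands the same classes had 103.7, 121 and 163, then 62.9, 123 and 168, then 0.799, 1.76 and 3.16 UPM. The LP-like rats lay below all ML-like rats in both experiments.

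FGFR3 was higher in both luminal classes than in basal-like cells. In whole glands it was 14.5, 18.4 and 32.1 UPM in ML-like, 2.28, 4.52 and 6.94 in LP-like and 1.33, 2.13 and 5.5 in basal-like cells. In sorted ACI cells it was 6.04, 12.2 and 23.7 UPM in ML-like, 3.61, 10.8 and 18.3 in LP-like and 0.32, 0.792 and 1.74 in basal-like cells. FGFR1 was highest in basal-like cells of whole glands (274, 360 and 424 UPM), followed by fibroblast-like (146, 196 and 369) and mural-like cells (39.7, 98.4 and 224), the smooth muscle cells and pericytes of vessels. FGFR4 was highest in mural-like (1.31, 4.47 and 6.48 UPM) and fibroblast-like cells (1.04, 1.99 and 3.94). In vehicle rats alone the levels in these classes overlapped (1.53 ± 0.236 and 1.41 ± 0.543 UPM, SD, n = 3), against means of 4.83 and 2.21 UPM in TGFBRi rats. No UMI of FGFR4 was seen in 3 classes, of which the sorted SD ML-like class, with 91642410 UMIs, allows up to 0.0327 UPM.

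Each ligand had its own order of classes in whole glands. FGF1 was highest in basal-like cells (21.1, 46.8 and 58.4 UPM), then in Schwann cell-like, mural-like and ML-like cells (means of 34.1, 18.3 and 8.22 UPM). FGF2 was highest in Schwann cell-like (42.3 UPM in the mean rat) and fibroblast-like cells (33.8), followed by mural-like (19.9) and basal-like cells (7.68). Among the named classes, FGF7 was highest in Schwann cell-like (18.4) and fibroblast-like cells (17), with 5.51 in mural-like and 0.03 in basal-like cells. An unnamed cluster, described at the end, held more FGF7 than any of these classes. FGF10 was highest in fibroblast-like cells (15.2) and in natural killer (NK) cell-like cells (12.5, from 72 UMIs), and was at or under 0.87 in every other class. These means are over 3 vehicle and 6 TGFBRi rats, and some first places differed between them. In vehicle rats alone, FGF10 was 17.9 UPM in NK cell-like and 6.04 in fibroblast-like cells, against 9.79 and 19.8 in TGFBRi rats. FGF7 was 21.2 UPM in fibroblast-like and 14.9 in Schwann cell-like cells of vehicle rats, against 14.9 and 20.1 in TGFBRi rats, and FGFR2 was 122 UPM in ML-like and 109 in basal-like cells, against 116 and 141. FGF1 was highest in basal-like cells in both (25.4 and 50.5 UPM), as was FGFR1 (382 and 337). No UMI of FGF7 or FGF10 was seen in the LP-like or ML-like cells of sorted SD rats, which allows up to 0.0254 and 0.0327 UPM.

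Neighbours in each order were compared within rats by an exact two-sided sign-flip test, with p-values adjusted over 144 pairs. With 9 rats the smallest p the test can give is 0.00391, and with 6 ACI rats it is 0.0312, which could not pass after adjustment. The order was set from the same levels of the same rats, vehicle and TGFBRi together, so that a pass says how neighbours compare with the spread between these rats and gives no independent support for the order. In all, 24 of 144 pairs passed (16.7%), 5 in sorted SD rats and 19 in whole glands, each with an exact p of at most 0.00781. Over all genes ordered in the same way, 7.36% of 304555 neighbouring pairs had an exact p at or under that value. Receptors that passed in whole glands were FGFR1 (basal-like over fibroblast-like over mural-like, macrophage-like over LP-like, NK cell-like over T cell-like), FGFR2 (ML-like over endothelium-like, lymphatic over Schwann cell-like), FGFR3 (ML-like over lymphatic) and FGFR4 (fibroblast-like over basal-like). Ligands that passed were FGF1 (basal-like, Schwann cell-like, mural-like, ML-like, fibroblast-like and endothelium-like, each over the next), FGF2 (fibroblast-like, mural-like, basal-like and macrophage-like), FGF7 (fibroblast-like, mural-like and endothelium-like) and FGF10 (NK cell-like over macrophage-like). FGFR2 in basal-like against ML-like cells of whole glands did not pass (adjusted p = 0.505, exact test), and neither did FGF2 or FGF7 in Schwann cell-like against fibroblast-like cells or FGF10 in fibroblast-like against NK cell-like cells. In sorted SD rats, FGFR1 (ML-like over LP-like), FGFR2 and FGF1 (basal-like over ML-like), FGFR3 (LP-like over basal-like) and FGF2 (basal-like over LP-like) passed.

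**Figure D2:**
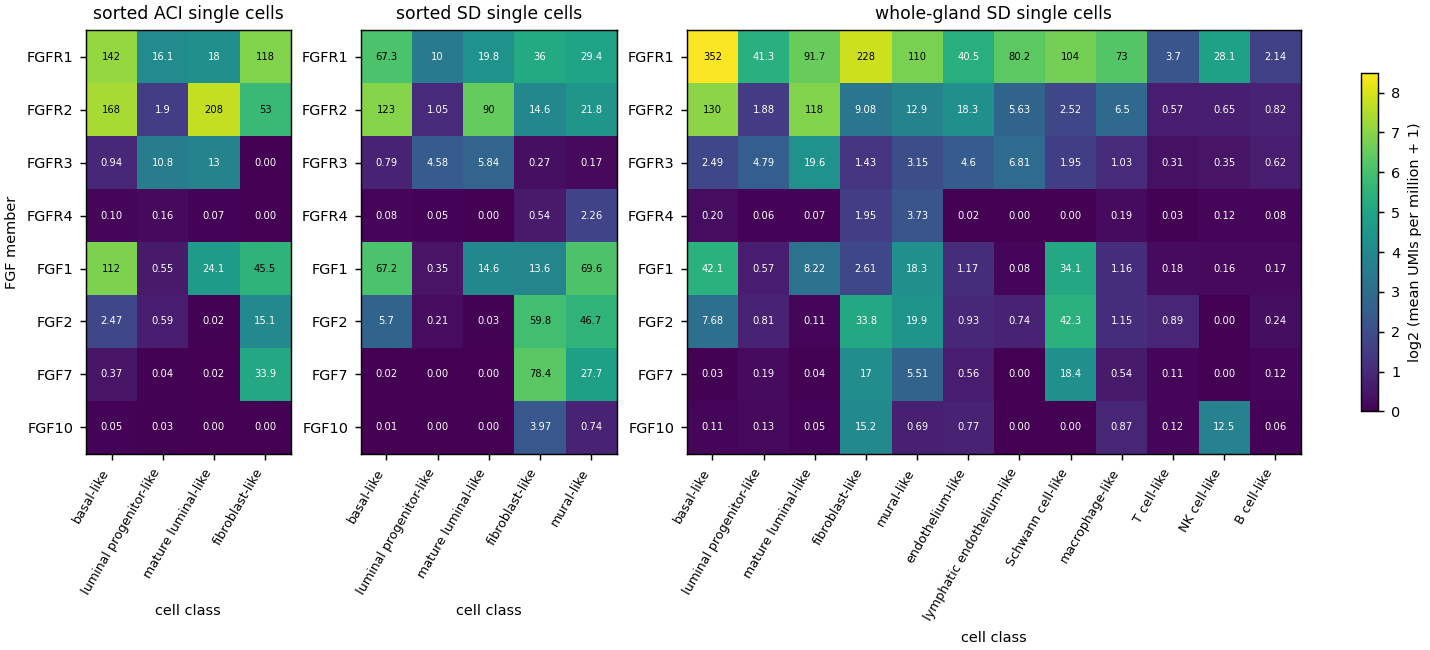
Levels of the 8 members by cell class in the 3 single-cell experiments, in UPM, with 1 point for each rat. FGFR2 lies high in basal-like and mature luminal-like cells and near 0 in luminal progenitor-like cells. Among the named classes of whole glands, FGF7 lies highest in Schwann cell-like and fibroblast-like cells, and FGF10 in fibroblast-like and NK cell-like cells.

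The promoters of FGFR2 and FGFR3 are shown because both receptors were lower after TGFBRi in sorted cells, as given next. The sequences are the 250 bases before the start in RefSeq (build GRCr8, minus strand, chr1:194280915-194281164 for Fgfr2 and chr14:81227210-81227459 for Fgfr3), where 7 of the 8 members were matched. Capitals mark GGCGC or its reverse GCGCC, a GC-rich element that SMAD proteins can bind, and GGTCA or its reverse TGACC, the estrogen response half-site.
Fgfr2: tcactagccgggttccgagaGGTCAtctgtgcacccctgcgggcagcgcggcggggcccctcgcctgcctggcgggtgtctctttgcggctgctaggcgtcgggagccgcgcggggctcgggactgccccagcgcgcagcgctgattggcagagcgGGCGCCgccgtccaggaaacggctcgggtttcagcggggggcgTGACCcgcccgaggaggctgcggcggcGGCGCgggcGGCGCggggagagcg
Fgfr3: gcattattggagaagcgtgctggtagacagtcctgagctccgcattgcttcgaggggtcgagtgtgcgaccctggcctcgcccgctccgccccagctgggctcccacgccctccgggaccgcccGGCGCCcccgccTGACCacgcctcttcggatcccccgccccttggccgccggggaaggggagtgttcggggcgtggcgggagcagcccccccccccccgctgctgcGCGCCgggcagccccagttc

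The GC-rich letters matched 4 times in Fgfr2 (of which the matches at positions -94 and -93 from the start overlap) and 3 times in Fgfr3 (those at -126 and -125 overlap), and in none of the other 5 members' windows. FGF1, which was also lower after TGFBRi in sorted cells, was among the members without a match. FGFR2 was higher after TGFBRi in basal-like cells of whole glands. Whether SMAD proteins bind these letters was not tested. The GC-rich letters were in 29.8% of 33469 promoters of this length. The half-site matched 2 times in Fgfr2 (at -230 and -51), 1 time in Fgfr3 (at -114), 2 times in Fgf10 and 1 time in Fgfr4, and was in 35.4% of the promoters. The short SMAD element CAGAC or GTCTG (42.9% of promoters) matched 1 time, in Fgf1, the palindrome GTCTAGAC (0.173%) and the ETS core CCGGAAG or CTTCCGG (7.27%) matched in none of the 7. The windows of Fgfr2 and Fgfr3 held 76.8% and 74.4% G or C against a median of 51.2%, which bears on how often GC-rich letters occur.

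To determine whether TGFBRi changed the members in sorted single cells, UMIs were summed per rat and class. In ACI rats, FGFR2, FGFR3 and FGF1 were lower after TGFBRi. For single cells, log2 differences and adjusted p-values are from edgeR, and each SE is from a separate DESeq2 fit. FGFR2 in ML-like cells was 262 to 312 UPM in 3 vehicle and 117 to 154 in 3 TGFBRi rats (log2 difference -0.81, SE 0.13, adjusted p = 0.000534), and in basal-like cells it was 197 to 212 and 121 to 144 UPM (-0.38, SE 0.11, adjusted p = 0.00742). FGFR3 in LP-like cells was 15.3 to 18.3 UPM in vehicle and 3.61 to 6.22 in TGFBRi rats (-1.38, SE 0.34, adjusted p = 0.000805). FGFR3 also fell in ML-like cells (-1.02, adjusted p = 0.00301) and in basal-like cells (-1.84, adjusted p = 0.00565), where it was 1.51 ± 0.308 and 0.368 ± 0.0502 UPM (SD). FGF1 in basal-like cells was 129 to 151 UPM in vehicle and 78.4 to 88.9 in TGFBRi rats (-0.53, SE 0.13, adjusted p = 0.00228). The seventh call, FGF1 in ML-like cells (29.6 ± 2.62 and 18.7 ± 1.41 UPM, -0.44, adjusted p = 0.0324), was lost without vehicle or TGFBRi replicate 1 (adjusted p up to 0.139).

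In sorted SD rats the same receptors and FGF1 were lower. FGFR3 in LP-like cells was 9.29 to 12.8 UPM in 3 vehicle and 0.376 to 1.85 in 6 TGFBRi rats (-3.09, SE 0.44, adjusted p = 0.00674). FGFR2 in ML-like cells was 121 to 199 and 36.2 to 66.3 UPM (-1.37, SE 0.26, adjusted p = 0.00964). FGF1 in basal-like cells was 105.2 to 114 and 36.4 to 64.7 UPM (-0.79, SE 0.20, adjusted p = 0.0191). These groups did not overlap. FGFR3 in ML-like cells was 12.2 to 12.4 and 0.847 to 7.77 UPM (-2.07, adjusted p = 0.0202), and FGFR2 and FGFR3 in basal-like cells also passed (-0.63, adjusted p = 0.0454, and -1.81, adjusted p = 0.0452). In sorted basal tables, FGFR3 had only 4 to 21 UMIs in each SD vehicle and 0 to 13 in each SD TGFBRi rat. The ACI basal tables held 10 to 34 and 3 to 5 UMIs. Free RNA from other cells may be counted at such levels, and its part was not tested. FGFR1 passed in LP-like cells (16.5 ± 2.27 and 6.73 ± 3.38 UPM, -0.94, adjusted p = 0.0640), while in basal-like cells it was 85.5 to 122 and 21.5 to 84.6 UPM without passing (-0.80, adjusted p = 0.113). The calls in ML-like cells held without any 1 rat. Without vehicle replicate 1 or 3, FGFR2 and FGFR3 in basal-like cells were lost (adjusted p up to 0.196 and 0.256), FGF1 in basal-like cells was lost without vehicle replicate 3 (0.118), FGFR3 in LP-like cells was lost without vehicle replicate 1 (0.101), and FGFR1 in LP-like cells was lost without any 1 of the 3 vehicle rats (up to 0.208) or TGFBRi replicate 2 or 4 (up to 0.110).

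In all, 7 of 15 tests in ACI rats and 7 of 14 in SD rats passed, all lower after TGFBRi, against 29.9% and 28.9% of all genes tested in either direction. The falls are larger in UPM than in the fitted differences, since the median gene lay 0.168 to 0.313 lower in log2 UPM in TGFBRi rats of the sorted classes (from 0.128 lower to 0.175 higher in whole-gland classes). The difference of the TGFBRi effect between SD and ACI rats passed for 0 of 16 tests of members in these classes (edgeR, 1 of 16 at an unadjusted p under 0.05), and 0.263% of all genes passed in basal-like, 0.0% in LP-like and 0.108% in ML-like cells. Vehicle and TGFBRi cells of a class lay partly in different clusters: in ACI rats, basal-like clusters 2 and 4 held 4.83% and 4.12% TGFBRi cells and clusters 1 and 3 held 94.9% and 97.4%, and SD clusters 8, 18 and 19 each had over 90% of their cells from 1 rat. Within ML-like clusters, FGFR2 was 322 to 358 UPM in vehicle and 160 to 192 in TGFBRi rats in ACI cluster 6, and 114 to 168 and 89.2 to 127 UPM, with overlap, in ACI cluster 5. In SD rats it was 119 to 204 and 45.4 to 74.9 UPM in cluster 9, 124 to 248.98 (3 rats) and 53.1 to 114 (4 rats) in cluster 10, and 69.4 to 122 and 20.0 to 45.4 in cluster 16. The groups overlapped in ACI cluster 5 alone of these 5 clusters.

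**Figure D3:**
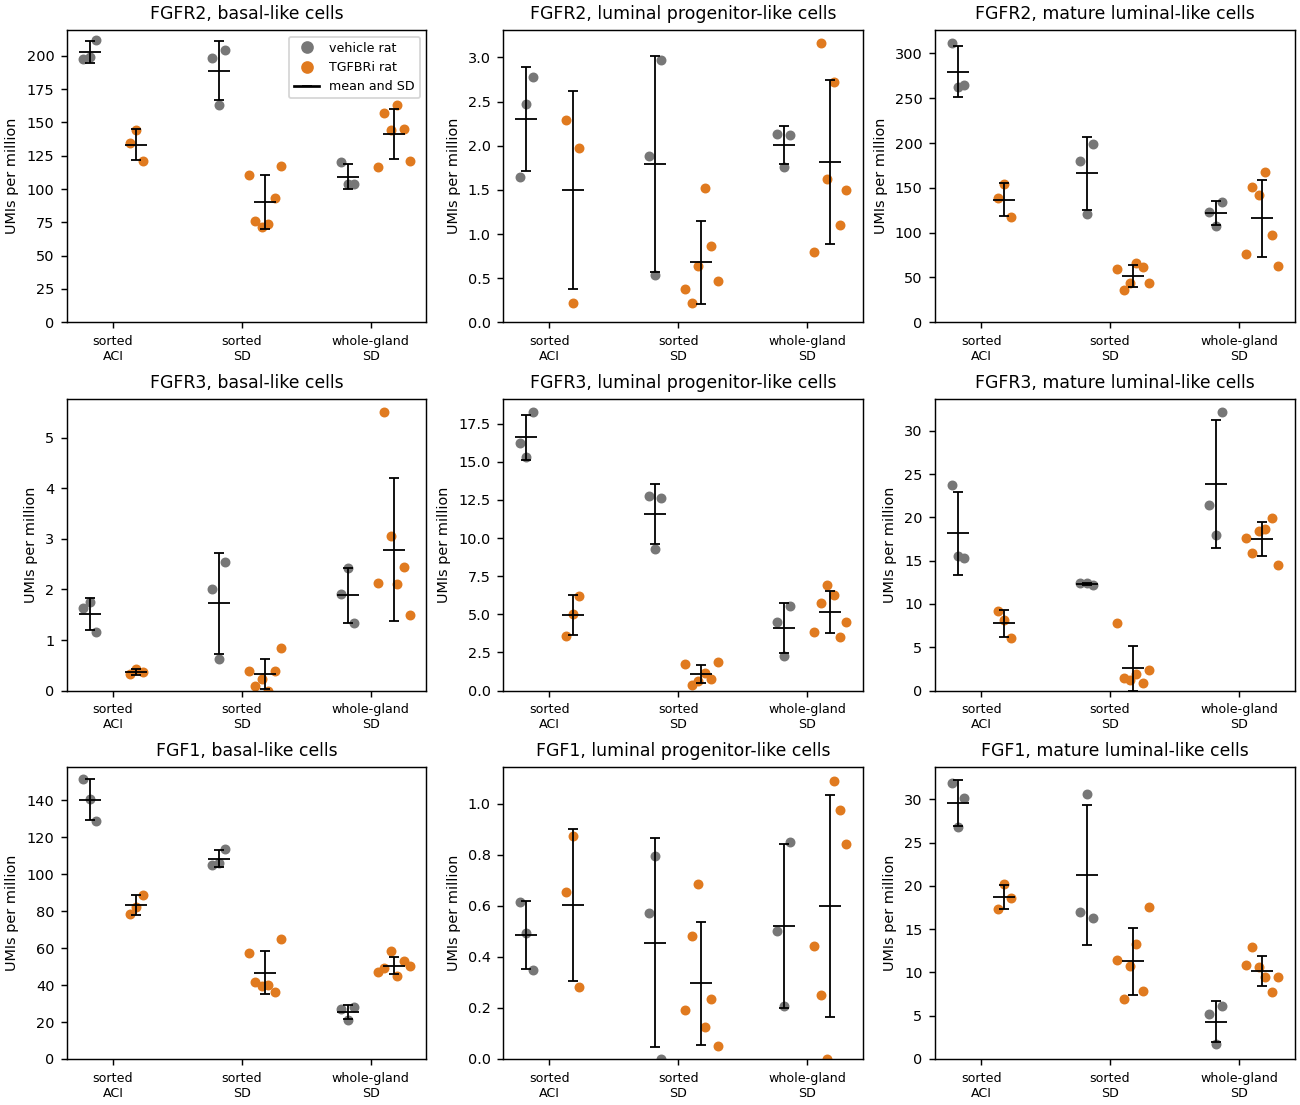
Levels of FGFR1, FGFR2, FGFR3 and FGF1 in epithelial classes of vehicle and TGFBRi rats in the 3 single-cell experiments, in UPM, with 1 point for each rat. FGFR2, FGFR3 and FGF1 lie lower in TGFBRi rats in the sorted experiments, and FGF1 lies higher in TGFBRi rats in basal-like cells of whole glands.

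In whole glands of SD rats, also at day 0, FGF1 and FGFR2 in basal-like cells went the other way. FGF1 was 21.1 to 27.9 UPM in 3 vehicle and 45.1 to 58.4 in 6 TGFBRi rats, without overlap (1.05, SE 0.15, adjusted p = 0.000171), and this held without any 1 rat. FGFR2 in basal-like cells was 103.7 to 120 UPM in vehicle and 117 to 163 in TGFBRi rats (0.42, SE 0.16, adjusted p = 0.0389), which was lost without vehicle replicate 2 or 3 (adjusted p up to 0.189). In ML-like cells, FGF1 was 1.69 to 6.07 and 7.77 to 12.9 UPM (1.09, SE 0.34, adjusted p = 0.0257), FGFR2 was 122 and 116 UPM in the mean rat without passing, and FGFR3 was 18 to 32.1 and 14.5 to 19.9 UPM (-0.51, adjusted p = 0.0651, lost without vehicle replicate 3, TGFBRi replicate 4 or TGFBRi replicate 6, adjusted p up to 0.397, with a log2 difference of -0.26 without vehicle replicate 3). In LP-like cells, FGFR1 was 40 to 58.7 and 29.3 to 39.4 UPM (-0.60, adjusted p = 0.0209, lost without vehicle replicate 1 or 3, up to 0.150), and FGFR3, lower after TGFBRi in the sorted cells, was 2.28 to 5.53 and 3.54 to 6.94 UPM (adjusted p = 0.654).

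The TGFBRi effect differed between whole-gland and sorted SD cells in 7 of 17 tests, all more positive in whole glands. The differences of the log2 effects were 1.79 for FGF1 (adjusted p = 2.85e-05), 1.00 for FGFR2 (0.00458) and 2.28 for FGFR3 (0.0180) in basal-like cells. They were 3.29 for FGFR3 in LP-like cells (0.00150), and 1.63 for FGF1 (0.0113), 1.22 for FGFR2 (0.0385) and 1.58 for FGFR3 (0.0414) in ML-like cells. Of all genes, 37.6% in basal-like, 24.3% in LP-like and 28.5% in ML-like cells differed between these experiments, so the members' share lay near the background. Sorting, the 3′ or 5′ library kit and the filter on cells differed between the experiments and cannot be told apart. Whole-gland basal-like cells lay in cluster 8, with 17.1% TGFBRi cells, and cluster 9, with 91.6%. Within cluster 9, FGF1 was 40.8 to 54.3 UPM in vehicle and 45.5 to 59.5 in TGFBRi rats, which overlapped. Within cluster 8 it was 19.8 to 26.2 and 25.6 to 43.7 UPM, which overlapped too.

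In whole glands, FGFR1 was lower after TGFBRi in fibroblast-like, mural-like and Schwann cell-like cells. FGF1 was higher in mural-like and Schwann cell-like cells, while FGF10 passed in fibroblast-like cells and FGFR4 in mural-like cells, each in that class alone of the classes tested. FGF10 in fibroblast-like cells was 2.73, 3.2 and 12.2 UPM in vehicle and 16.6 to 26.1 in 6 TGFBRi rats, without overlap (1.34, SE 0.41, adjusted p = 0.0605). DESeq2 gave no adjusted p for FGF10 in these cells. FGFR1 in these cells was 369, 349 and 146 UPM in vehicle and 173 to 222 in TGFBRi rats (-0.70, SE 0.22, adjusted p = 0.0250). Vehicle rat 3 stood apart from the other 2 vehicle rats in both genes and in FGF7 (8.62 against 30.1 and 24.8 UPM). Without vehicle rat 3, the differences were 2.58 for FGF10 and -1.0 for FGFR1, and without vehicle rat 1 or 2 both calls were lost (adjusted p up to 0.167 and 0.125). FGF2 and FGF7 in fibroblast-like cells did not pass (32.7 and 34.3 UPM, adjusted p = 0.771, and 21.2 and 14.9 UPM, adjusted p = 0.203, in the mean vehicle and TGFBRi rat).

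In mural-like cells, FGFR1 was 98.4 to 224 UPM in vehicle and 39.7 to 109 in TGFBRi rats (-1.27, SE 0.31, adjusted p = 0.0177). FGFR4 was 1.31 to 1.78 and 3.24 to 6.48 UPM, without overlap (1.41, SE 0.48, adjusted p = 0.0128). Both calls held without any 1 rat. FGF1 rose in mural-like cells (12.1 ± 3.64 and 21.4 ± 6.71 UPM, 0.66, adjusted p = 0.0969) and in Schwann cell-like cells (20.4 ± 2.22 and 41 ± 10.3 UPM, 0.89, adjusted p = 0.0669), and FGFR1 fell in Schwann cell-like cells (139 ± 46.4 and 85.7 ± 20.6 UPM, -0.74, adjusted p = 0.0304). In endothelium-like cells, FGFR3 was 1.11 to 3.53 and 3.74 to 7.64 UPM (1.22, adjusted p = 0.0272, but 1.84 without vehicle replicate 3 and 0.92 without vehicle replicate 1), and FGFR2 was 12.2 to 14.1 and 15.2 to 29.3 UPM (0.47, adjusted p = 0.0924). FGFR1 in B cell-like cells passed as well (3.81 ± 1.48 and 1.3 ± 0.491 UPM), at a level near 0 against that of basal-like cells. Free RNA from other cells may be counted at such levels, and its part was not tested. FGF2 fell in LP-like cells (1.44 and 0.498 UPM in the mean rat, adjusted p = 0.0920). Each of these calls but the 2 in mural-like FGFR1 and FGFR4 was lost without at least 1 rat (adjusted p up to 0.333). FGF1 in mural-like cells was also lost in DESeq2, with genes of at least 1 count and at a Leiden resolution of 0.4 (adjusted p up to 0.151), and FGF1 in Schwann cell-like cells in DESeq2 and with at least 50 cells a rat (up to 0.131). With genes of at least 1 count, FGF10 in fibroblast-like (0.1002), FGFR2 in endothelium-like (0.107) and FGF2 in LP-like cells (0.109) did not pass at 0.1.

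Over the 12 classes of whole glands, 16 of 64 tests passed (25%), 9 higher and 7 lower, a share near the 21.9% of all genes (30% in fibroblast-like, 27.3% in mural-like, 45.4% in basal-like and 31.8% in endothelium-like cells). By member and over the 3 experiments, FGFR3 passed in 8 of 16 tests, FGF1 in 7 of 15, FGFR2 in 6 of 17, FGFR1 in 6 of 18 (all lower), FGFR4 in 1 of 3, FGF10 in 1 of 5, FGF2 in 1 of 13 and FGF7 in 0 of 6. In all, 30 of 93 passed, against 24.4% of all genes, and 12 of the 30 held without any 1 rat.

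**Figure D4:**
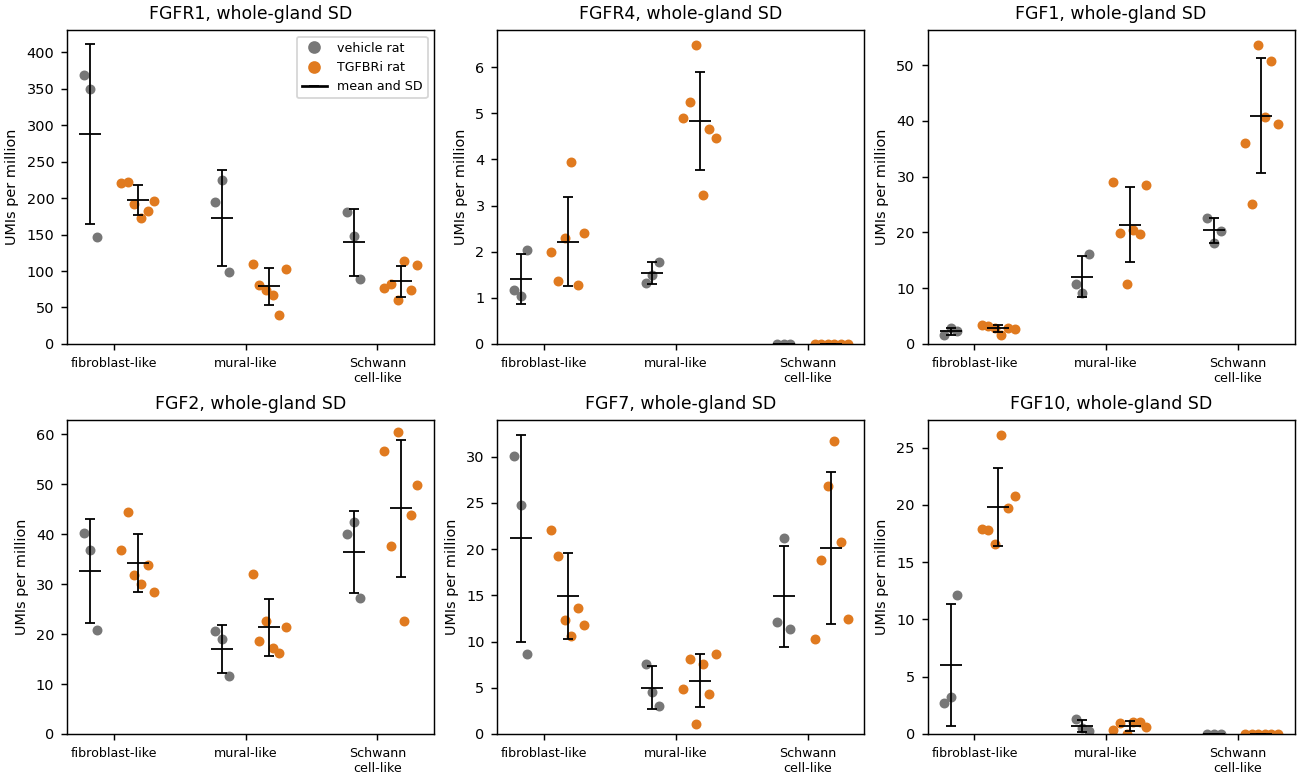
Levels of members in stromal classes of whole glands in vehicle and TGFBRi rats, in UPM, with 1 point for each rat. FGF10 in fibroblast-like cells and FGFR4 in mural-like cells lie higher in all TGFBRi rats than in all vehicle rats, and vehicle rat 3 stands apart from the other vehicle rats in fibroblast-like FGFR1 and FGF10.

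In bulk libraries of ACI rats at day 0, basal FGF1 and luminal FGFR3 lay lower after TGFBRi without passing, and luminal FGFR2 lay higher. In ACI rats, luminal FGFR2 was 209, 166 and 109 RPM in vehicle and 233, 271 and 344 RPM in TGFBRi rats (0.79 ± 0.58, adjusted p = 0.522, limma). Luminal FGFR3 was 123, 98.5 and 70.5 RPM in vehicle and 47.5, 53.5 and 72.5 RPM in TGFBRi rats (-0.79 ± 0.90, adjusted p = 0.710). FGFR2 lay higher and FGFR3 mostly lower in TGFBRi rats, and mature luminal markers summed to 719 to 907 RPM in vehicle and 419 to 588 in TGFBRi rats. Basal FGF1 was 42.7, 41.2 and 36.7 RPM in vehicle and 36.7, 16.9 and 16.5 RPM in TGFBRi rats (-0.99 ± 0.33, adjusted p = 0.0866). Without the libraries low in long transcripts, basal FGF1 and luminal FGFR3 passed (adjusted p = 0.0190 and 0.0457), where 21.7% of all genes did in basal and 13.8% in luminal cells, and basal FGF2 (3.35, 1.81 and 2.18 against 6.7, 6.2 and 9.45 RPM) passed in the other direction (1.49, adjusted p = 0.0392). None of the libraries left out was of day 0, so the same rats were compared and only the rest of the fit changed. Fibroblast markers in the day 0 basal libraries were 3462 to 8893 RPM in vehicle and 2663 to 32972 in TGFBRi rats. In SD rats, basal FGFR2 was 232, 237, 221 and 251 RPM in vehicle and 311, 263, 172 and 340 RPM in TGFBRi rats (0.18 ± 0.21, adjusted p = 0.981), and no member passed in any SD fraction at day 0 or in any ACI fraction at day 0, 7 or 14. Of all genes, 3.34% passed in basal, 1.01% in luminal and 2.85% in CD45+ cells of ACI rats at day 0, 0.00639% in basal cells at day 7, and 0% in the other young groups. At day 7, luminal FGFR2 was 59.5, 67.6 and 27.5 RPM in vehicle and 37.2, 243 and 203 RPM in TGFBRi rats, and vehicle replicate 3 and TGFBRi replicate 1 were low in long transcripts. Without them, and so with 1 of the 3 rats of each group left out, FGFR2 (1.85, adjusted p = 0.0177) and FGFR3 (1.40, adjusted p = 0.0251) passed, where 3.11% of all genes did. Vehicle replicate 3 was also the rat whose descriptions disagreed with its other labels.

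In the NMU study, luminal FGFR1 and FGFR3 were higher in tumor-free TGFBRi rats than in tumor-bearing vehicle rats. FGFR1 was 12.1, 6.21 and 20.7 RPM in vehicle, 45.7, 93 and 84.9 RPM in tumor-free TGFBRi and 54.3, 23.9 and 79.6 RPM in tumor-bearing TGFBRi rats. FGFR3 was 2.88, 2.9 and 15.6 RPM, then 44.4, 38.2 and 37.5 RPM, then 16.1, 72 and 32.5 RPM. No TGFBRi rat of either kind overlapped with the vehicle rats. The vehicle means, 13 RPM for FGFR1 and 7.12 for FGFR3, were the lowest of all 20 luminal groups. On the authors' scale, 1 read stood for 4.00 and 2.16 in vehicle replicates 1 and 2. It stood for 0.82 to 1.34 in the other NMU luminal libraries. The 2 calls given next were kept in all 8 alternative settings, with adjusted p up to 0.0416 for FGFR1 and 0.0471 for FGFR3. These settings included edgeR and DESeq2 on recovered reads, which set their own scaling. How much of the difference came from the scaling was not tested. Tumor-free against vehicle rats, the log2 difference was 2.24 ± 0.46 for FGFR1 (adjusted p = 0.0313) and 2.59 ± 0.55 for FGFR3 (adjusted p = 0.0350), against 0.948% of all genes called. Tumor-bearing TGFBRi against vehicle rats, FGFR1 (1.41, adjusted p = 0.138) and FGFR3 (2.11, adjusted p = 0.0827) did not pass, where 0.212% of all genes did. Both calls were lost without any 1 of the 3 tumor-free rats or without vehicle replicate 1 or 2 (adjusted p up to 0.266 for FGFR1 and 0.278 for FGFR3). Fibroblast markers moved with the groups (265 to 477 RPM in vehicle, 407 to 2528 in tumor-free and 394 to 4618 in tumor-bearing TGFBRi rats), and mature luminal markers were 408 to 472, 88.1 to 399 and 291 to 860 RPM. Their part in the result was not tested. Basal markers, at 30.6 to 3409 RPM over all luminal libraries, are not given by group here, and their part was not tested either. The median of all genes lay at -0.32 on the authors' scale and at 0.35 in RPM, and both receptors were higher on either scale.

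Luminal FGFR2 was much lower in rats with E2. In the E2 study it was 157, 50.4, 112 and 44.5 RPM in vehicle rats without E2 and 6.94, 10.1, 12.6 and 2.63 RPM in the tumor-bearing vehicle rats with E2, without overlap (-3.41 ± 0.58, adjusted p = 0.00450), against 1.48% of all genes called, and the call held without any 1 rat (adjusted p up to 0.0239). Mature luminal markers, the subset in which FGFR2 was high among single cells, summed to 159 to 1614 RPM without E2 and 66.6 to 128 with E2, and luminal progenitor markers summed to 7275 to 34276 and 30602 to 39314. Their part in the fall of FGFR2 was not tested. Basal cells also carried FGFR2, and basal markers are not given by group here. FGFR3 was 100, 14.2, 31.4 and 59.7 RPM without and 14.6, 8.13, 14.3 and 25 RPM with E2 (-1.39 ± 0.51, adjusted p = 0.199). Among rats with E2, FGFR2 was 26.4, 23.9, 61.2 and 17.2 RPM in tumor-free TGFBRi rats, above all vehicle rats (1.92 ± 0.58, adjusted p = 0.410), and 2.58 and 19.5 RPM in tumor-bearing TGFBRi rats, and it was 83.7, 121 and 147 RPM in TGFBRi rats without E2. Mature luminal markers were 131 to 237 RPM in the tumor-free TGFBRi rats with E2. No difference between TGFBRi and vehicle rats with E2 passed, where 0.0147% (tumor-free) and 0.00736% (tumor-bearing) of all genes did.

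The third bulk treatment call was FGF10 in luminal cells without E2, which was 0 in all 4 vehicle rats and 0.872, 0.593 and 0.898 RPM in TGFBRi rats (adjusted p = 0.00894 in limma and 1.00 in edgeR and DESeq2), against 0.0147% of all genes. It was lost without any of 4 of the 7 rats (up to 0.0666), and fibroblast markers were 134 to 314 RPM in the vehicle and 321 to 1221 in the TGFBRi rats.

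**Figure D5:**
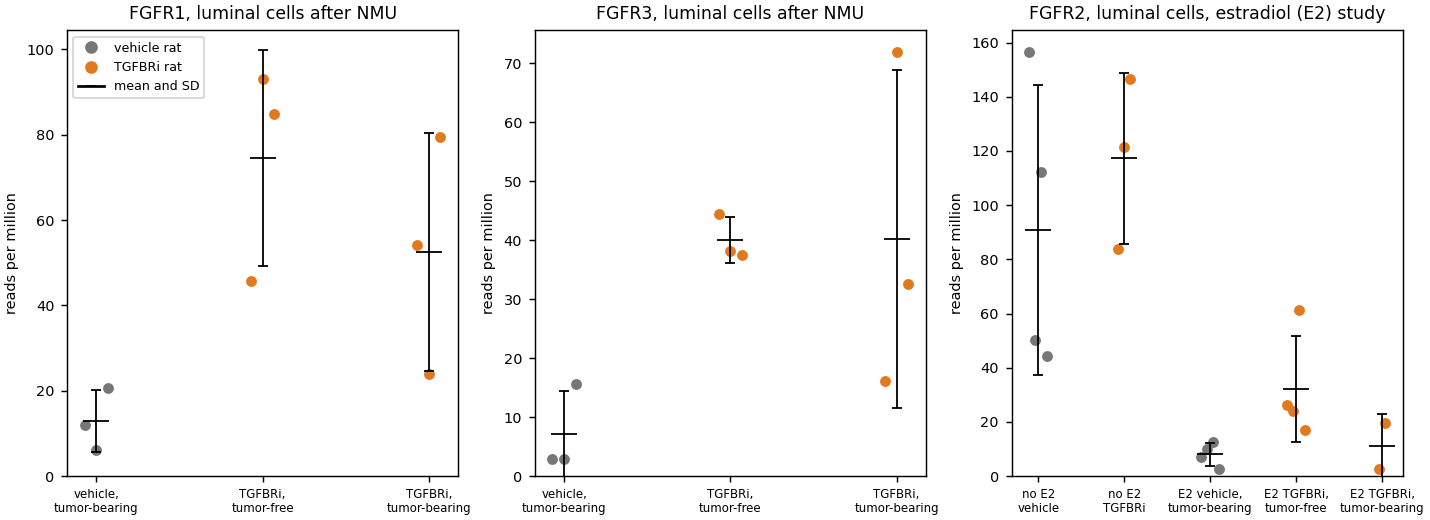
Levels of FGFR1, FGFR2 and FGFR3 in luminal libraries of the NMU and E2 studies, in RPM on a log scale, with 1 point for each rat. NMU vehicle rats lie lowest in FGFR1 and FGFR3, and vehicle rats with E2 lie below those without E2 in FGFR2.

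In adult rats, no member passed, where 0.00744% of all genes did in basal and 0.0281% in luminal cells of parous rats and 0.022% in CD45+ cells of virgin rats. No member passed in basal or CD45+ cells of the NMU study or in CD45+ cells of the E2 study, where 1.31% (basal) and 0.015% (CD45+) of all genes did in tumor-bearing NMU rats and 0.0223% in tumor-bearing rats with E2. Luminal FGFR2 in virgin rats was 22, 70.8, 63.6 and 45.8 RPM in vehicle and 35.4, 181, 62.3 and 209 RPM in TGFBRi rats (1.01 ± 0.56, adjusted p = 0.756), and basal FGFR3 was 42.9, 32.8, 27.3 and 23.8 and 30.4, 10.3, 8.32 and 4.61 RPM (-1.54 ± 0.48, adjusted p = 0.0557, against 8.73% of all genes called). TGFBRi replicate 4 of the latter was low in long transcripts, and without it the difference was -1.10 (adjusted p = 0.127). Over all bulk comparisons of TGFBRi with vehicle, 3 of 251 member tests passed in limma, against 0.588% of all genes in limma. The groups did not overlap in 25, near the 10.6% of all tests over genes that did not. In edgeR 2 passed and in DESeq2 9, and 31 had an unadjusted p under 0.05 in limma. No pooled share of all genes was computed for these 3 counts. In adult rats, an unadjusted p under 0.05 was found for 141 of 13618 genes in CD45+ cells of parous rats. It was found for 3461 of 13442 genes in basal cells of virgin rats. Of the 88 tests between vehicle conditions (days, parity, E2), 1 passed, against 0.286% of all genes. Between days in ACI vehicle rats, 0.192% and 0.0384% of all genes passed in basal cells (day 7 and day 14 against day 0), 0.685% and 0.389% in luminal cells and 0.0% and 0.129% in CD45+ cells, and 0.282% passed for E2 in CD45+ cells. Of 88 tests of a difference between TGFBRi effects 0 passed in limma and edgeR and 2 in DESeq2. In limma, 1.04% of all genes passed between parous and virgin basal cells. The shares were 0.00639% and 0.00659% between day 14 and day 0 in basal and luminal cells, and 0.0135% and 0.19% at day 7 and day 14 in CD45+ cells. Of the 88 tests, 13 had an unadjusted p under 0.05 in limma. Between parous and virgin rats, so did 2271 of 13442 genes in basal and 368 of 13618 in CD45+ cells.

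The other genes of the pathway were taken from 4 lists: 17 other ligands, 20 receptor partners and coreceptors, 13 adaptors and 16 feedback and target genes. In the lineage tests, 33 of 78 tests of feedback and target genes were lower and 1 higher in luminal cells, as were 33 and 2 of 84 for partners, 17 and 1 of 69 for other ligands and 9 and 4 of 60 for adaptors. These are 43.6%, 41.7%, 26.1% and 21.7% of the tests, against 24.5% over all genes. SPRY1, a feedback inhibitor, was lower in luminal cells in all 5 sets (-2.41 to -3.52 on the log2 scale), and so was FGFRL1, a receptor without a kinase domain (-3.83 to -5.83). DUSP6, a phosphatase of ERK, and the transcription factor ETV5 were lower in all 5 sets too.

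After TGFBRi, SPRED1, an inhibitor of the Ras to MAPK step, was lower in all 3 classes of both sorted experiments. In ACI rats it was 216 and 78.7 UPM in basal-like cells of the mean vehicle and TGFBRi rat (-1.22), and in SD rats 159 and 38 UPM (-1.67). Of 15 feedback and target genes tested in each class, 7 rose and 3 fell in ACI basal-like, 0 and 3 in ACI LP-like, 1 and 6 in ACI ML-like, 1 and 3 in SD basal-like, 0 and 2 in SD LP-like and 0 and 4 in SD ML-like cells. Of all genes, 34.7%, 28.5% and 26% were called in these ACI classes and 28.1%, 28.9% and 29.6% in the SD classes, so that the counts in SD rats and in ACI LP-like cells were near or below the background. In whole glands, 9 rose and 1 fell in basal-like cells (45.4% of all genes called), with a list median of 0.76 against 0.11 for all genes. Among them DUSP6 was 678 ± 94.8 and 1176 ± 252 UPM (0.85, adjusted p = 0.00340) and ETV5 was 30.8 ± 10.5 and 66.4 ± 12.3 UPM (1.21, adjusted p = 0.000706). In fibroblast-like cells of whole glands 2 rose and 6 fell (median -0.25 against 0.04, 30.0% of all genes called), and DUSP6 was 105.004 ± 32.3 and 55.8 ± 10.6 UPM (-1.08, adjusted p = 0.00129) and SPRY2 was 146 ± 9.44 and 89.7 ± 14.5 UPM (-0.90, adjusted p = 0.00151). These were the 2 whole-gland classes with the highest share of the list called. In the others 7.69% to 42.9% of the list was called, with 42.9% in mural-like, 20% in ML-like and 13.3% in LP-like cells. Of all genes, 27.3%, 27.6% and 27.3% were called in these 3 classes. SDC1, the heparan sulfate proteoglycan syndecan 1, rose in sorted basal-like cells (1.02 in ACI and 1.16 in SD rats) and fell in basal-like cells of whole glands (1114 and 547 UPM, -0.97). Among other ligands, FGF16 in fibroblast-like cells of whole glands was 3.39 ± 0.892 and 13.4 ± 3.93 UPM (1.81, adjusted p = 0.000439), and FGF5 in Schwann cell-like cells was 123 ± 46.1 and 49.9 ± 24.9 UPM (-1.24, adjusted p = 0.0141). In all, 19 rose and 26 fell of 139 pathway tests in ACI, 13 and 21 of 146 in SD and 55 and 73 of 517 in whole-gland classes, which is 32.4%, 23.3% and 24.8% against 29.9%, 28.9% and 21.9% of all genes and so near the background.

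Genes whose bulk levels were most like a member's were named by Pearson's r of log2 group means, over 59 groups (57 for members not listed in tumor CD45+ cells) and as a description. FGF1 was most like CSAD, PDGFA and NECTIN1 (r = 0.943, 0.942 and 0.940), FGFR1 most like PHLDB1, GPRC5B and TRPV4 (0.934, 0.933 and 0.933) and FGFR2 most like KITLG, CTNNAL1 and WLS (0.933, 0.932 and 0.932). FGFR3 was most like GRIK5, ELMO3 and TRPM4 (0.913, 0.912 and 0.909), FGF2 like NUMBL, ADORA2B and ADAMTS5 (0.905, 0.886 and 0.884) and FGF7 like GFPT2, C1S and CSF1 (0.901, 0.889 and 0.871). Groups share rats and fractions, and FGFR4 and FGF10 had mean levels under 1 RPM and were not ranked.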

How the data were processed

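Bulk libraries (SMARTer v4) were aligned by the authors with STAR 2.5.1b to rn6, counted with HTSeq and deposited as DESeq2-normalized values (unit signal: counts divided by size factors). Whole reads were recovered for 100% of 2526805 values above 0 (tolerance 0.001), rows that name no gene (23.1% to 42.5% of reads where listed) were left out, and RPM were computed from those reads. As these values are normalized, limma was kept as the main test. Single-cell tables hold UMI counts deposited by the authors (Cell Ranger 4.0.0 for sorted cells), of which the sorted tables had been filtered on PTPRC and keratin reads and whole glands had not. Groups followed the labels. 1 young ACI rat (basal and luminal day 7 vehicle replicate 3) had descriptions that disagreed with its other labels and was taken as vehicle. SD rats labelled as weak or strong responders were not split.

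Bulk tests used limma 3.58.1 (trend, robust) on log2(value + 1) of genes with a summed value of 10 or more, at an adjusted p of 0.05, with edgeR 4.0.16 and DESeq2 1.42.0 on recovered reads as alternatives. Replicates of a group are separate rats, and the fractions of 1 rat are not independent of each other. Adult rat names recur in vehicle and TGFBRi groups and were taken as different animals. The study allocated rats to the treatment groups at random and killed adult rats at day 0 after the last dose. Basal and luminal cells were compared only where they were scaled together. Basal and luminal libraries of 1 rat deviated together (r of 0.07 to 0.90 in 18 young ACI, 0.09 to 0.28 in 8 young SD and 0.002 to 0.29 in 9 NMU rats). Cells were clustered with scanpy 1.11.5 (Leiden resolution 0.8) and named from marker lists, and no doublets were removed (an alternative left out the 6% of cells with the highest Scrublet scores). UMIs were summed per rat and class with 10 or more cells, genes with 10 or more counts were tested with edgeR's quasi-likelihood test at an adjusted p of 0.1, and standard errors are DESeq2's. Adjusted p-values are over all genes (Benjamini-Hochberg). The tests were run on simulated data with known changes first. All 8 members were named; the lists, rules and members were chosen with earlier results of these data known. Sequencing depth limits low levels, and limits for a count of 0 (3 counts) cover counting error only. RefSeq promoters are of GRCr8, and coordinates of rn6 were not used.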

Additional observations from a re-analysis of the deposited data

Results flagged for a closer look

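Each check took 1 member in 1 group of 4 to 10 rats. In 13 of 157 checks (11 in bulk and 2 in single cells), 1 rat lay far from the others by Dixon's test, which chance gives in about 1 of 20 checks. Checks of the same group share rats. In young SD rats at day 0, vehicle replicate 1 had the lowest basal FGFR1 (238 RPM, others 272 to 276), TGFBRi replicate 3 had the highest basal FGF7 (12.6 RPM, others 4.37 to 4.76), and TGFBRi replicate 3 had the lowest FGFR1 (18.8 RPM, others 37.9 to 41.4) and FGFR2 (11.4 RPM, others 34.2 to 36.8) in CD45+ cells. In adult virgin vehicle rats, replicate 1 was highest in basal FGF2 (8.21 RPM), in FGF7 of CD45+ cells (36.6 RPM, others 0.991 to 4.38) and in luminal FGF7 (8.67 RPM, others 0.101 to 0.937). In adult parous TGFBRi rats, replicate 3 was highest in basal FGFR2 (546 RPM) and FGFR4 (7.51 RPM). In the E2 study, replicate 3 of the tumor-free TGFBRi rats with E2 was highest in luminal FGF7 (6.53 RPM) and vehicle replicate 3 without E2 in luminal FGF1 (7.31 RPM). In whole glands, TGFBRi replicate 1 was highest in FGFR1 of lymphatic endothelium-like cells (141 UPM, others 62.5 to 86.8) and lowest in FGFR1 of macrophage-like cells (43.9 UPM, others 70.1 to 78.8).

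The TGFBRi effect in SD rats differed between whole-gland and sorted cells (edgeR, whole gland minus sorted, log2). In basal-like cells the difference was 1.79 for FGF1 (adjusted p = 2.85e-05), 1.00 for FGFR2 (0.00458) and 2.28 for FGFR3 (0.0180). In LP-like cells it was 3.29 for FGFR3 (adjusted p = 0.00150). In ML-like cells it was 1.63 for FGF1 (adjusted p = 0.0113), 1.22 for FGFR2 (0.0385) and 1.58 for FGFR3 (0.0414).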

How the results depend on the processing

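No member's call reversed its direction under any alternative run. Lineage calls numbered 19 of 40 in limma, 18 to 20 without any 1 library, 19 in edgeR, 26 in DESeq2, and 27 when the rat entered as a replicate block. Without the libraries low in long transcripts they numbered 27. That alternative, and the sums over sort gates (26 single-cell calls against 30), were chosen after the data were seen. TGFBRi calls in bulk numbered 3 of 251 in limma, 2 in edgeR, 9 in DESeq2, 8 without the low libraries, 3 with a block by rat name in adult rats (names that did not pair the samples, r of -0.80 to 0.46), and 1 to 5 without any 1 library. The lowest count was without NMU luminal tumor-bearing vehicle replicate 1 or 2 or any 1 tumor-free TGFBRi rat, and the highest without vehicle replicate 3. Calls between vehicle conditions numbered 1 of 88 in limma, 4 in DESeq2, 2 with only the groups compared, 3 without the low libraries, and 1 to 1 without any 1 library. Calls of a difference between TGFBRi effects in bulk numbered 0 of 88 in limma and 1 without the low libraries. The TGFBRi call of FGF10 in luminal cells without E2 was lost in edgeR, in DESeq2 and with only the groups compared. The cause of these differences was not tested. Single-cell calls numbered 30 of 93, 28 in DESeq2, and 20 to 33 without any 1 rat, with 21 and 20 without whole-gland vehicle replicate 1 or 2. Class order calls numbered 24 of 144, 32 of 128 at a Leiden resolution of 0.4, 19 without the highest Scrublet scores, and 0 in vehicle rats and 0 in TGFBRi rats alone, where the smallest p was 0.25 or 0.0312 (exact test). Levels near 1 UMI and members under 1 RPM are limited by depth, with 3 rats in most groups.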

Other observations

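Fibroblast-like cells of whole glands lay in cluster 16, with the matrix genes SPON1 and CTHRC1 among its leading genes, and cluster 20, with DPP4 among them, and both the clusters and the following values come from the same cells, so that they were not tested. FGF10 was 6.92 UPM in vehicle and 23.6 in TGFBRi rats in cluster 16 (means over rats) and 4.73 and 9.77 in cluster 20. FGF2 was 26.4 and 23.1 UPM in cluster 16 and 54 and 65 in cluster 20. FGFR1 was 299 and 179 UPM in cluster 16 and 268 and 251 in cluster 20.

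The highest FGF7 level of any whole-gland cluster with 3 vehicle rats was in an unnamed cluster of 398 cells with the chemokine genes CCL19, CCL21 and CXCL13 and the BMP antagonist GREM1 among its leading genes. It was 77.7 to 104.8 UPM in 3 vehicle rats (mean 90.1) and 28.5 to 74.4 in 5 TGFBRi rats (mean 44.5), which did not overlap, and the cluster was seen and chosen after its values were known.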
